A study of Mus musculus with 9 samples.

Results

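Insulin and insulin-like growth factor (IGF) signalling was followed here through 10 genes in mouse brown adipose tissue (BAT), namely Insr, Irs1, Irs2, Pik3r1, Akt2, Foxo1, Igf1, Igf1r, Igfbp3 and Igfbp4. The genes were chosen by name for their place in the pathway, with earlier results of these data known. They are 10 of the 16937 genes listed in at least 1 of the deposited tables. Each was listed in all 3 tables. The tissue came from 3 groups of 3 mice, adult males and females of 12 to 23 weeks on a C57Bl/6J background. WT RT mice were wild type and were kept at room temperature (23 °C), WT Cold mice were wild type and spent 8 h at 4 °C, and GCN2 KO Cold mice lacked Gcn2 in the whole body and spent 8 h at 4 °C. All were fed freely, housed singly for 5 days beforehand and killed at zeitgeber time 9. The series was built to ask how BAT responds to acute cold and what loss of GCN2, a kinase that senses amino acid shortage, changes in that response. Since GCN2 KO mice at room temperature were not analysed here, whether the effect of cold differs by genotype could not be tested.

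Eif2ak4, which encodes GCN2, was examined first. Its normalized read count was 294, 334 and 369 in the 3 WT RT libraries and 181, 238 and 245 in WT Cold. The libraries labelled GCN2 KO Cold held 367, 395 and 369. The gene was thus not lower in those libraries than in WT Cold or WT RT. Against WT Cold its log2 fold change was 0.78 (limma adjusted p = 0.0932, DESeq2 adjusted p = 0.0028), and WT Cold was below WT RT (-0.59, limma adjusted p = 0.0294). Counts were summed over the whole gene and the part deleted in these mice is not given in the sources used here, so the total does not check the labels. It follows that every direction given for GCN2 KO Cold rests on the labels. The title of 1 of the 3 GCN2 KO Cold samples names both GCN2 KO and WT, and that sample was placed by its genotype entry, which reads GCN2 KO. Libraries held 27058799 to 30768064 reads on listed genes. Their columns name no mouse, and A, B and C below follow the order of the library codes within a group and pair nothing between groups. The WT RT codes begin with other letters than the codes of the cold libraries, so whatever the letters stand for and cold cannot be told apart. The 8 brown adipocyte markers summed to 513010 to 581683 normalized counts in WT RT, 702319 to 745636 in WT Cold and 877867 to 907367 in GCN2 KO Cold, with no overlap between groups, and their part in the values below was not tested. Most of each sum came from Ucp1 and Fabp4. The list did not rise as a whole in WT Cold against WT RT, where 2 of the 8 rose and 2 fell, beside 13.6% and 14.1% of all genes. Its median log2 fold change there was -0.033. For GCN2 KO Cold against WT RT, 4 rose and 1 fell, beside 16.4% and 17.8%, with a median of 0.18. Between the cold groups 0 of the 8 were called, 7 had a higher mean in GCN2 KO Cold, and the median was 0.24. Across the libraries Ucp1 was at 95554 to 302804 and Prdm16, the lowest of the 8, at 269 to 657. Skeletal muscle markers were present as well, and library C was the lowest of its group in them in all 3 groups. The summed count of 10 muscle markers was 54248 to 62605 in WT RT, 51663 to 82188 in WT Cold and 8427 to 32633 in GCN2 KO Cold.

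Insulin acts through its receptor, a tyrosine kinase encoded by Insr, and IGF-1 acts mainly through the related receptor encoded by Igf1r. Activated receptors phosphorylate adaptor proteins (IRS1, IRS2), which recruit phosphoinositide 3-kinase (PI3K) through its regulatory subunit and so switch on the kinase Akt. Akt drives glucose uptake and lipid synthesis and holds FoxO transcription factors out of the nucleus. IGF-binding proteins carry IGFs outside the cell and limit their access to the receptor. In brown fat this pathway is known to govern fuel storage and adipocyte differentiation, and Akt2 is the Akt form tied most closely to insulin action in metabolic tissues.

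Promoter sequence was read for the 10 genes because FoxO factors are known to act on Irs2 and Insr and because GCN2 acts through ATF4, which binds amino acid response elements. RefSeq (GRCm38.p6) start sites gave 13 windows of 300 bases, 250 before and 50 after the start, for 9 of the 10 genes, with none for Insr. Searched on both strands, the FoxO motif GTAAACA and the cAMP response element TGACGTCA were in 0 of the 13 windows, against 3.65% and 1.79% of all 32851 windows. The amino acid response element TGATGNAAN was in 1 of 13, at Akt2, against 3.95% of all windows. An E-box, CACGTG, was in 2 of 13, at Irs1 and at Irs2, against 7.15%. The stretches around these matches are shown because they are the matches found among the 10 genes, with the motif in capitals, 5′ to 3′ on the gene's strand. The Akt2 match reads TGATGNAAN on the opposite strand. The first motif base lies 86 bases before the Akt2 start, 115 before the Irs1 start and 44 before the Irs2 start. A match describes these letters and does not show that a protein binds there.
Akt2 (chr7:27605671-27605759, plus strand): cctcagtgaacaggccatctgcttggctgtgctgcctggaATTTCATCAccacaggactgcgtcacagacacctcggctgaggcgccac
Irs1 (chr1:82291509-82291594, minus strand): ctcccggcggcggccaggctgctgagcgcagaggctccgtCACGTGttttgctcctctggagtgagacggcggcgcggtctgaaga
Irs2 (chr8:11008930-11009013, minus strand): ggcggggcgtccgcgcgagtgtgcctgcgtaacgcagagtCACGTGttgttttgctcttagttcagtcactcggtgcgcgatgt

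At room temperature the 10 genes spanned a wide range of levels. Divided by the length of their merged exons, WT RT levels ran from 1512 normalized counts per kilobase for Akt2 down to 17.0 for Igf1r. Igfbp4 was next to Akt2 at 798, then Pik3r1 at 308. Insr (186), Igfbp3 (162), Foxo1 (149), Igf1 (142) and Irs2 (128) formed a middle range, and Irs1 was at 33.7. The WT RT ranges of neighbouring genes overlapped from Insr through Irs2 and did not overlap elsewhere in this order. In WT Cold the order of the upper levels differed, with Igfbp4 at 1152 normalized counts per kilobase (960.2 to 1354) above Akt2 at 809 (773 to 846), and the ranges of these genes did not overlap in that group either. The lowest read count behind any value was 106 reads, for Irs1 in GCN2 KO Cold C.

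Acute cold in wild-type mice came with a change in most of these genes, in opposite directions at different steps. Insr, Irs2, Foxo1, Igfbp3 and Igfbp4 rose in WT Cold against WT RT, whereas Akt2 and Pik3r1 fell. Irs2 and Igfbp3 rose most, 3.25-fold and 3.07-fold, and the level of Pik3r1 in WT Cold was 0.423 of that in WT RT. In all, 7 of 10 genes passed an adjusted p under 0.05 (limma), 5 higher and 2 lower, and the test called 27.7% of all 16679 genes, 13.6% higher and 14.1% lower. With the study's further limit of an absolute log2 fold change over 1, 4 of 10 passed against 8.14% of all genes. The groups did not overlap for 8 of 10 genes, against 45.5% of all genes. The median log2 fold change was 0.47 over the 10 genes and 0.0029 over all genes. The 10 genes and the lists used below were chosen with earlier results of these data known. The shares of all genes set beside them therefore describe them and do not test them as sets.

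None of the 10 genes was called in GCN2 KO Cold against WT Cold. At this comparison limma called 0.405% of 16312 genes, and 0.257% with the fold limit, so few calls were made anywhere. Unadjusted p was under 0.05 in 5 of the 10 genes (Insr, Irs1, Irs2, Igf1r and Igfbp3), beside 15.3% of all genes, and neither DESeq2 nor edgeR on the recovered reads called any of the 10 at an adjusted p under 0.05. Those 5 genes all had a lower mean in GCN2 KO Cold, as did 9 of the 10 genes. The median log2 fold change over the 10 was -0.24, against -0.0031 over all genes. For Insr and Irs1 the groups did not overlap (2 of 10 genes, against 22% of all genes). Leaving out library C of both groups also gave 0 calls among the 10.

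GCN2 KO Cold against WT RT differs in both genotype and temperature, and it shares a group with each of the other comparisons. Here 6 of 10 genes were called, Foxo1 and Igfbp3 higher and Akt2, Pik3r1, Igf1 and Irs1 lower. All genes together gave 34.2%, 16.4% higher and 17.8% lower. With the fold limit the counts were 3 of 10 and 10.6%, and groups did not overlap for 6 of 10 genes against 49.2%. The median log2 fold change was 0.12 over the 10 genes and 0.0091 over all genes. Scaling libraries by their total reads in place of size factors moved the median of all genes to -0.081, -0.12 and -0.19 in the 3 comparisons in the order given. That scaling changed the split of calls over all genes from 2268 higher and 2356 lower to 1570 and 2905 for WT Cold against WT RT. It moved the split from 29 and 37 to 11 and 52 for GCN2 KO Cold against WT Cold, and from 2713 and 2944 to 1486 and 4820 for GCN2 KO Cold against WT RT. Among the 10 genes, 7, 0 and 6 were called with that scaling, the 7 with Igf1 in place of Igfbp4.

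**Figure D1:**
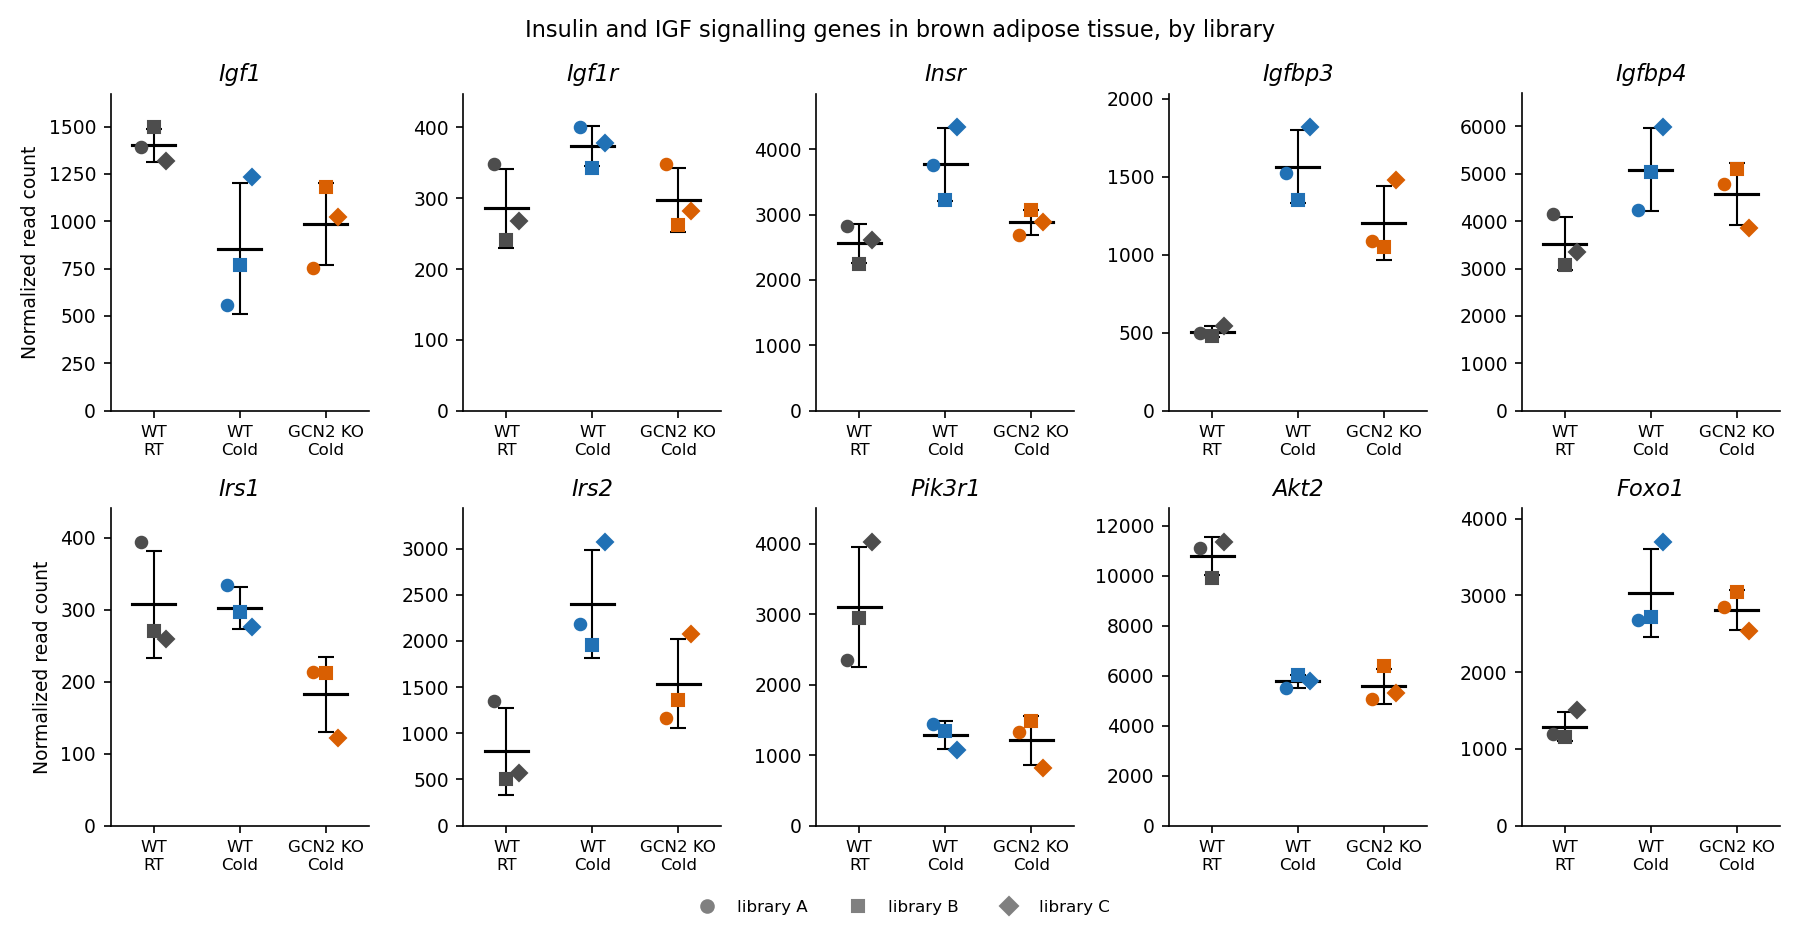
Normalized read count (y axis, from 0) of each of the 10 genes in the 3 libraries of each group (x axis), with points for libraries, a line for the mean and bars for the SD (n = 3). The highest Akt2 count of a cold library is 6370.2 and the lowest of WT RT is 9909, and the Foxo1 and Igfbp3 points of both cold groups lie above those of WT RT.

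**Figure D2:**
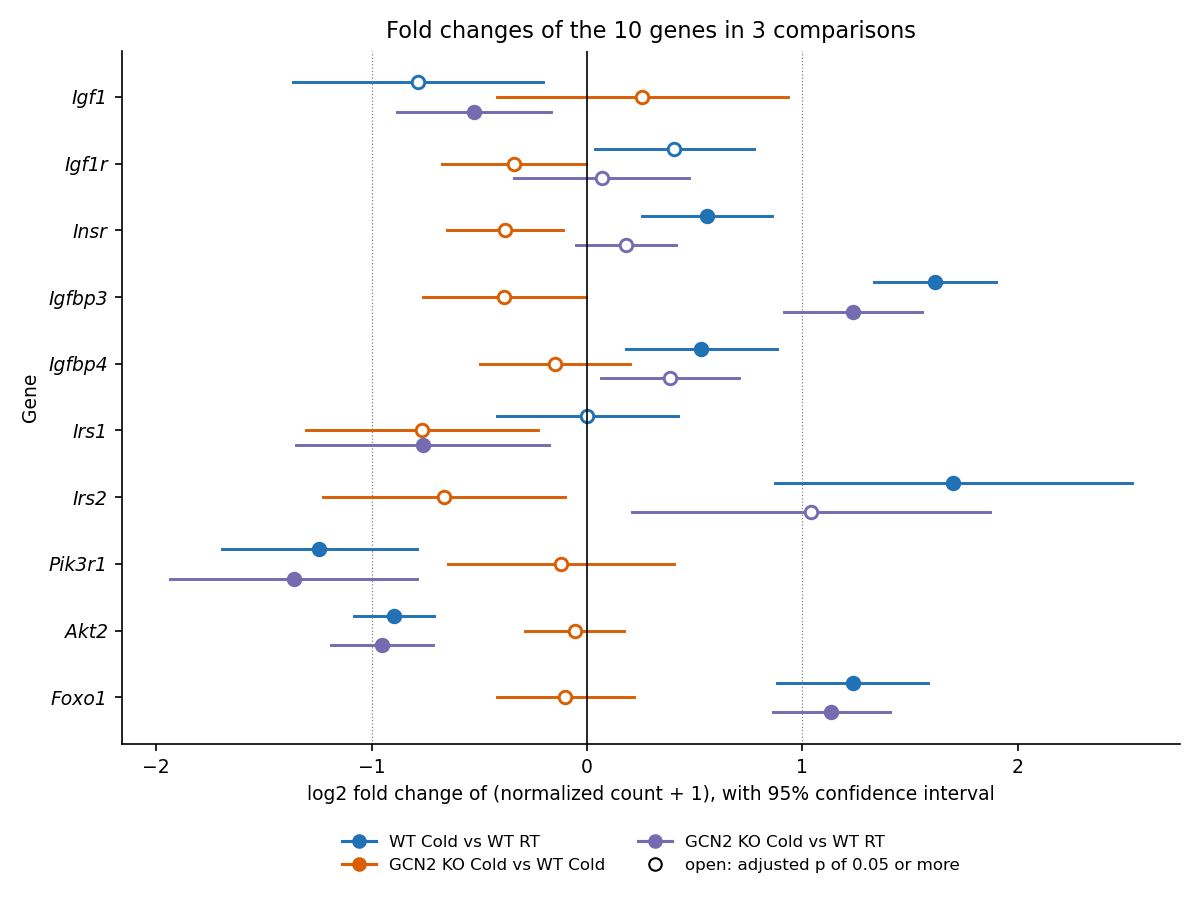
The log2 fold change (x axis) of each gene (y axis) in the 3 comparisons, with 95% confidence intervals from limma and open circles where the adjusted p was 0.05 or more. All 10 circles for GCN2 KO Cold against WT Cold are open, and 9 of them lie left of 0.

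Igf1 encodes IGF-1, which adipose tissue makes locally. Its normalized count was 1389.5, 1495 and 1320.0 in WT RT, 559.8, 769.9 and 1235 in WT Cold, with GCN2 KO Cold at 751, 1182 and 1024. Every cold library was below every WT RT library, and the WT Cold libraries were spread more widely than those of any other group for this gene, with library C close to WT RT. The fold change in WT Cold against WT RT was just outside the threshold (log2 fold change -0.78 ± 0.25 (SE), limma adjusted p = 0.0517). Without WT Cold C it was -1.09 and was called (limma adjusted p = 0.00112). It was also called by DESeq2 (-0.71, adjusted p = 0.0164), with scaling by library totals (-0.87, limma adjusted p = 0.0321) and with all groups in a single fit (-0.79, limma adjusted p = 0.0436). Igf1 fell in GCN2 KO Cold against WT RT (log2 fold change -0.53 ± 0.16 (SE), limma adjusted p = 0.0316), a call lost without GCN2 KO Cold C or any WT RT library (-0.48 to -0.57, limma adjusted p 0.0539 to 0.0951), without the mean-variance trend, which ties each gene's spread to that of genes of like level (limma adjusted p = 0.0809) or with all groups in a single fit (limma adjusted p = 0.138). The difference between the cold groups was 0.26 on the log2 scale (95% confidence interval -0.42 to 0.93, limma adjusted p = 0.729). Igf2, the other IGF ligand of the list, was at 226, 176 and 295 in WT RT, 329, 331 and 299 in WT Cold and, for GCN2 KO Cold, 184, 253 and 311, and was called in none of the comparisons. The insulin genes Ins1 and Ins2 were not among the listed genes.

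Macrophages also make IGF-1, and macrophage markers moved with cold. Of 10 macrophage markers, 7 fell in WT Cold against WT RT and 10 in GCN2 KO Cold against WT RT, with median log2 fold changes of -0.80 and -1.21, beside 14.1% and 17.8% of all genes called lower. Their summed count was 12836 to 19028 in WT RT, 6547 to 10186 in WT Cold and 5395 to 7917 in GCN2 KO Cold. None of the 10 was at 0. In whole tissue, fewer cells of a type and less RNA per cell cannot be told apart. In each group the library with the highest Igf1 count also had the highest macrophage sum, at 19028 in WT RT B, 10186 in WT Cold C and 7917 in GCN2 KO Cold B. The lowest of both was in library C in WT RT, whereas Igf1 was lowest in A of both cold groups and the macrophage sum in WT Cold B and GCN2 KO Cold C. The part of these cells in the Igf1 values was not tested.

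**Figure D3:**
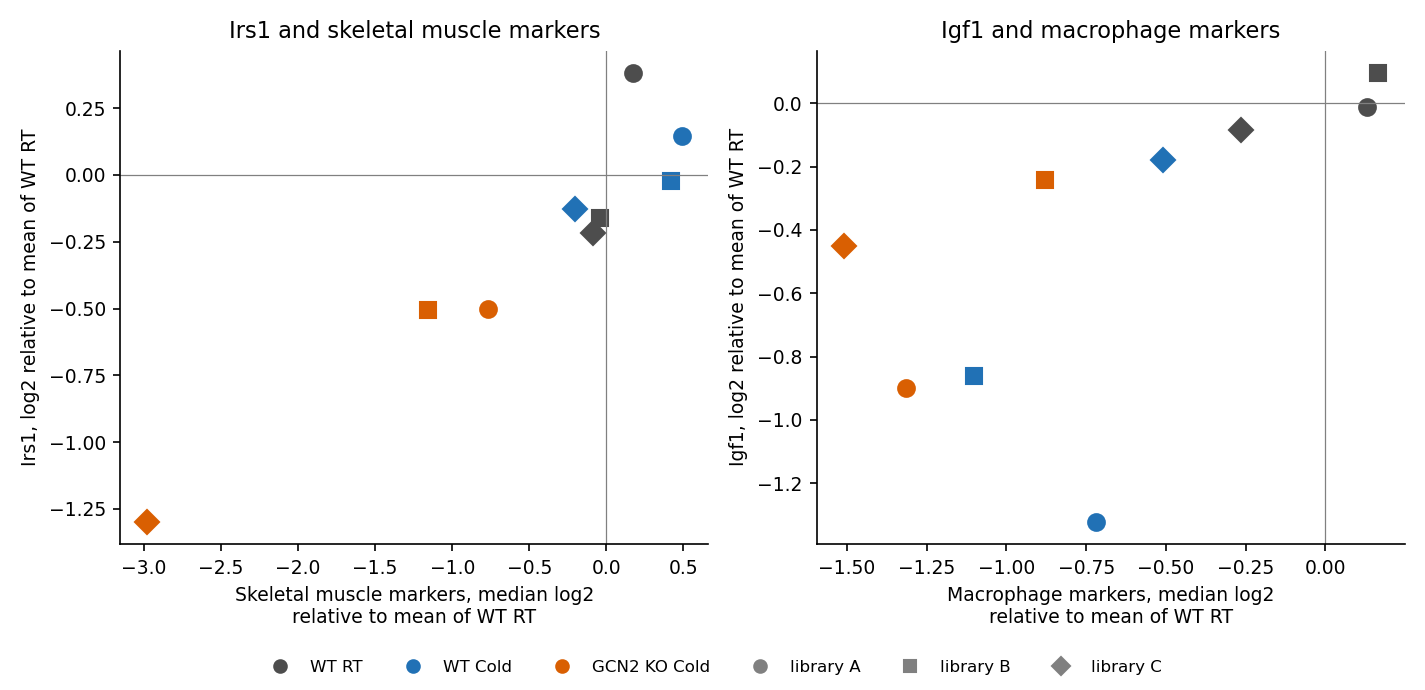
Left, Irs1 (y axis) against the median of 10 skeletal muscle markers (x axis), and right, Igf1 against the median of 10 macrophage markers, each as log2 relative to the WT RT mean. Colours stand for groups and shapes for libraries. The GCN2 KO Cold libraries lie lowest and farthest left in the Irs1 panel, with library C at -1.30 and -2.98.

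Insr encodes the insulin receptor. Its count was 2818, 2237 and 2617 in WT RT, 3752, 3219 and 4331 in WT Cold and 2689.8, 3064 and 2882 in the GCN2 KO Cold libraries. All WT Cold libraries lay above all libraries of both other groups, and GCN2 KO Cold lay within and just above the WT RT range. Insr rose 1.47-fold in WT Cold against WT RT (log2 fold change 0.56 ± 0.13 (SE), limma adjusted p = 0.0167), and without WT RT B the difference was 0.46 and was not called (limma adjusted p = 0.0565). The call was also lost without the mean-variance trend (limma adjusted p = 0.0536). Between GCN2 KO Cold and WT Cold the difference was -0.38 on the log2 scale (95% confidence interval -0.65 to -0.11, limma adjusted p = 0.189), and between GCN2 KO Cold and WT RT it was 0.18 on the log2 scale (95% confidence interval -0.052 to 0.41, limma adjusted p = 0.205), or -0.022 with scaling by library totals.

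Igf1r, the IGF-1 receptor gene, was the least abundant of the 10 per kilobase. It was at 348, 241 and 268 normalized counts in WT RT, 400.0, 343 and 378 in WT Cold, with GCN2 KO Cold at 348, 262 and 282. The 3 groups overlapped, since WT RT A and GCN2 KO Cold A reached the WT Cold values. No comparison was called. The difference was 0.41 on the log2 scale (95% confidence interval 0.037 to 0.77, limma adjusted p = 0.0954) in WT Cold against WT RT, -0.34 on the log2 scale (95% confidence interval -0.67 to -0.0050, limma adjusted p = 0.32) between the cold groups and 0.069 on the log2 scale (95% confidence interval -0.34 to 0.47, limma adjusted p = 0.789) in GCN2 KO Cold against WT RT, the last of which turned to -0.13 when scaled by library totals. Without WT RT A the first of these was 0.56 and was called (limma adjusted p = 0.0376). Igf2r encodes a receptor that clears IGF-2 without signalling through Akt, and it fell in WT Cold (log2 fold change -0.36 ± 0.074 (SE), limma adjusted p = 0.0101) and in GCN2 KO Cold (log2 fold change -0.64 ± 0.094 (SE), limma adjusted p = 0.00165), both against WT RT. Its count was 1831, 1832 and 2009 in WT RT, 1496, 1438 and 1463 in WT Cold and, for GCN2 KO Cold, 1144, 1348 and 1131. Within a library, Insr stood 9.88 to 11.9 times as high per kilobase as Igf1r in WT RT, 11.5 to 14.0 times in WT Cold and 9.44 to 14.3 times in GCN2 KO Cold, so the ranges of this ratio overlapped.

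Among the IGF-binding proteins, Igfbp3 encodes the main carrier of IGFs in blood. Its count was 498, 481 and 543 in WT RT, 1521, 1352 and 1815 in WT Cold and 1088, 1046 and 1479 in the GCN2 KO Cold libraries. Each cold library held more than any WT RT library, and GCN2 KO Cold C fell inside the WT Cold range while A and B lay below it. Igfbp3 rose 3.07-fold in WT Cold (log2 fold change 1.62 ± 0.12 (SE), limma adjusted p = 0.000242) and 2.35-fold in GCN2 KO Cold (log2 fold change 1.24 ± 0.14 (SE), limma adjusted p = 0.000608), both against WT RT. The difference between the cold groups was -0.38 on the log2 scale (95% confidence interval -0.76 to -0.0036, limma adjusted p = 0.322). Both calls against WT RT held in all 15 alternatives run.

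Igfbp4 encodes a binding protein that inhibits IGF action until the protease PAPP-A cleaves it. It was at 4149, 3067 and 3357 in WT RT, 4240.2, 5048 and 5978 in WT Cold, with GCN2 KO Cold at 4783, 5106 and 3846. WT Cold A lay only just above WT RT A, and GCN2 KO Cold overlapped both groups. The rise in WT Cold against WT RT was 1.45-fold (log2 fold change 0.53 ± 0.15 (SE), limma adjusted p = 0.0355). It was not called without WT Cold B, WT Cold C, WT RT B or WT RT C (0.41 to 0.53, limma adjusted p 0.0522 to 0.112), nor with scaling by library totals (0.45, limma adjusted p = 0.0546) or without the mean-variance trend (limma adjusted p = 0.0868). Against WT RT, GCN2 KO Cold differed by 0.38 on the log2 scale (95% confidence interval 0.063 to 0.71, limma adjusted p = 0.0658), called without GCN2 KO Cold C or WT RT A (0.51 in both, limma adjusted p = 0.0262 and 0.0313) and by DESeq2 (0.38, adjusted p = 0.0427). Between the cold groups the difference was -0.15 on the log2 scale (95% confidence interval -0.50 to 0.20, limma adjusted p = 0.693), and 0.091 without both C libraries. Pappa, which encodes PAPP-A, was low at 24.5, 18.9 and 14.0 in WT RT, 74.6, 63.7 and 90.8 in WT Cold and, for GCN2 KO Cold, 55.8, 61.9 and 60.0. Against WT RT it rose in WT Cold (log2 fold change 1.97 ± 0.29 (SE), limma adjusted p = 0.00288) and was also called higher in GCN2 KO Cold (log2 fold change 1.62).

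The binding proteins did not move as a group. Of the 11 genes listed under IGF-binding proteins and their regulators, 5 rose and 1 fell in WT Cold against WT RT, where 13.6% and 14.1% of all genes did so. Besides Igfbp3, Igfbp4 and Pappa, the genes that rose were Stc1, a PAPP-A inhibitor (log2 fold change 1.38 ± 0.34 (SE), limma adjusted p = 0.0216), and Igfbp7 (log2 fold change 0.33 ± 0.095 (SE), limma adjusted p = 0.0351), the latter not called with scaling by library totals. Igfbp5 fell from 3296, 2842 and 2515 in WT RT to 731, 703 and 1018 in WT Cold (log2 fold change -1.83 ± 0.16 (SE), limma adjusted p = 0.000441) and stood at 722, 752 and 609.6 in GCN2 KO Cold (log2 fold change -2.04 ± 0.12 (SE), limma adjusted p = 6.54e-05 against WT RT). Per kilobase, Igfbp3 was 0.290 to 0.414 of Igfbp5 in the WT RT libraries, 3.42 to 3.99 times it in WT Cold and 2.67 to 4.66 times it in GCN2 KO Cold. In the summed level of the 7 Igfbp genes, the share of Igfbp5 was 8.84 ± 0.426% (SD, n = 3) in WT RT and 2.05 ± 0.107% in WT Cold, while that of Igfbp3 was 3.01 ± 0.412% and 7.58 ± 0.656%. Igfals, which stabilizes IGF-1 with Igfbp3 in blood, was at 272, 234 and 253 in WT RT, 59.1, 99.5 and 223 in WT Cold and 122, 167 and 164 in the GCN2 KO Cold libraries. Both cold groups lay below WT RT, and Igfals was called lower in GCN2 KO Cold (log2 fold change -0.75 ± 0.17 (SE), limma adjusted p = 0.0102) but not in WT Cold (log2 fold change -1.19 ± 0.42 (SE), limma adjusted p = 0.0692). Also lower in GCN2 KO Cold against WT RT was Igfbp6 (-0.54, limma adjusted p = 0.0146).

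Irs1 and Irs2 encode the adaptors that link both receptors to PI3K. Irs1 was at 394, 270.0 and 259.5 in WT RT, 334, 297 and 276 in WT Cold and 213, 213 and 122 in the GCN2 KO Cold libraries. All WT Cold libraries lay within the WT RT range, and every GCN2 KO Cold library was below all WT libraries, with library C the lowest. In WT Cold against WT RT the difference was 0.0017 on the log2 scale (95% confidence interval -0.42 to 0.42, limma adjusted p = 0.995), and its sign turned in 8 of 15 alternatives. Between GCN2 KO Cold and WT Cold it was -0.77 on the log2 scale (95% confidence interval -1.30 to -0.23, limma adjusted p = 0.188). In GCN2 KO Cold against WT RT, Irs1 fell (log2 fold change -0.76 ± 0.26 (SE), limma adjusted p = 0.0498), but the call was lost without GCN2 KO Cold C (-0.50) or any WT RT library (-0.57 to -0.87, limma adjusted p 0.0689 to 0.16), without the mean-variance trend (limma adjusted p = 0.0951) and at a pseudocount of 0.5 (limma adjusted p = 0.0501). Irs1 is also expressed in skeletal muscle. All 10 muscle markers were lower in every GCN2 KO Cold library than in every WT Cold library. Their log2 fold changes there were -1.33 to -3.34, and these groups did not overlap for 22% of all genes. Only Myh7 passed an adjusted p of 0.05 between the cold groups (limma adjusted p = 0.0483). Against WT RT, 9 of the 10 markers were called lower in GCN2 KO Cold, beside 17.8% of all genes. Groups did not overlap for any of the 10 there, against 49.2% of all genes, and the markers' median was -1.67 on the log2 scale. In the plot of Irs1 against these markers, GCN2 KO Cold C was lowest in both, and the part of muscle in the Irs1 values was not tested.

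Irs2 had the largest log2 fold change of the 10 genes in WT Cold against WT RT. Its count was 1348, 505 and 566 in WT RT, 2188, 1959 and 3068 in WT Cold, with GCN2 KO Cold at 1169, 1362 and 2080.4. WT RT A stood well above the other two WT RT libraries and overlapped GCN2 KO Cold, while the WT Cold libraries lay above all WT RT libraries. Irs2 rose 3.25-fold in WT Cold (log2 fold change 1.70 ± 0.36 (SE), limma adjusted p = 0.0113), and the log2 fold change was 2.15 without WT RT A. For GCN2 KO Cold against WT RT the difference was 1.04 on the log2 scale (95% confidence interval 0.21 to 1.87, limma adjusted p = 0.0573), called without WT RT A (1.49, limma adjusted p = 0.00603), without GCN2 KO Cold A (1.21, limma adjusted p = 0.0493) or with all groups in a single fit (1.03, limma adjusted p = 0.0467). Between the cold groups it was -0.66 on the log2 scale (95% confidence interval -1.22 to -0.10, limma adjusted p = 0.253). Per kilobase, Irs2 exceeded Irs1 2.70 to 4.95 times in WT RT, 9.47 to 16.1 times in WT Cold and 7.93 to 24.6 times in GCN2 KO Cold. The adaptors thus differed in their balance between WT RT and both cold groups, with no overlap of this ratio.

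Of 8 adaptor genes listed, Irs2 was the only one called higher in WT Cold against WT RT, beside 13.6% of all genes. Adaptor genes that fell included Gab1 (log2 fold change -0.48 ± 0.14 (SE), limma adjusted p = 0.038) and Grb2, the link to Ras (log2 fold change -0.31 ± 0.072 (SE), limma adjusted p = 0.0172). Against WT RT, GCN2 KO Cold was lower in Grb2 (log2 fold change -0.29 ± 0.072 (SE), limma adjusted p = 0.0151) and higher in Sh2b1 (log2 fold change 0.43 ± 0.078 (SE), limma adjusted p = 0.00394). Among 8 inhibitors acting at the receptor, Grb14 was the only call in WT Cold against WT RT, where 27.7% of all genes were called. Grb14 encodes a protein that binds and blocks the insulin receptor. Its count was 1122, 1267 and 1299.6 in WT RT, 346, 412 and 347 in WT Cold and, for GCN2 KO Cold, 475, 590.5 and 424, so no cold library came near WT RT (log2 fold change -1.74 ± 0.11 (SE), limma adjusted p = 0.000121 in WT Cold).

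Pik3r1 encodes p85alpha, the main regulatory subunit of PI3K. It was at 2346, 2941 and 4017 in WT RT, 1437, 1348 and 1069 in WT Cold and 1333, 1483 and 816 in the GCN2 KO Cold libraries. All cold libraries were below all WT RT libraries, and library C was the highest in WT RT and the lowest in both cold groups. Pik3r1 fell in WT Cold (log2 fold change -1.24 ± 0.20 (SE), limma adjusted p = 0.0037) and in GCN2 KO Cold (log2 fold change -1.36 ± 0.25 (SE), limma adjusted p = 0.00426) against WT RT, and both calls held in all 15 alternatives. The difference between the cold groups was -0.12 on the log2 scale (95% confidence interval -0.65 to 0.40, limma adjusted p = 0.85), and 0.14 without GCN2 KO Cold C. Of the 6 PI3K subunit genes, 4 fell and none rose in WT Cold against WT RT, beside 14.1% of all genes called lower and 13.6% called higher. The others that fell were Pik3cd (log2 fold change -1.26 ± 0.22 (SE), limma adjusted p = 0.00518), which encodes a catalytic subunit found mostly in leukocytes, Pik3cb (log2 fold change -0.42 ± 0.090 (SE), limma adjusted p = 0.0122) and Pik3r2, a second regulatory subunit gene (log2 fold change -0.32 ± 0.095 (SE), limma adjusted p = 0.0389). The same 4 were the subunit genes called in GCN2 KO Cold against WT RT, a comparison that shares the WT RT libraries. Most macrophage markers fell as well, and their part in Pik3cd was not tested. Per kilobase, Pik3r1 made up 61.8 ± 4.70% (SD, n = 3) of the summed regulatory subunit genes Pik3r1, Pik3r2 and Pik3r3 in WT RT, 45.2 ± 3.12% in WT Cold and 42.9 ± 5.22% across GCN2 KO Cold.

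Akt2 had the smallest standard error of the 10 genes in WT Cold against WT RT. It was at 11116, 9909 and 11328 in WT RT, 5514, 6033 and 5769 in WT Cold, with GCN2 KO Cold at 5055, 6370.2 and 5303. The cold groups overlapped each other and lay far below WT RT. Akt2 fell to 0.537 of WT RT in WT Cold (log2 fold change -0.90 ± 0.079 (SE), limma adjusted p = 0.000448) and to 0.517 of it in GCN2 KO Cold (log2 fold change -0.95 ± 0.10 (SE), limma adjusted p = 0.000526), in all 15 alternatives each. The difference between the cold groups was -0.057 on the log2 scale (95% confidence interval -0.29 to 0.17, limma adjusted p = 0.834), and 0.0095 without GCN2 KO Cold A. Akt1, the ubiquitous form, went from 2493, 2516 and 2597 in WT RT to 3410.1, 3691 and 2935 in WT Cold, a rise (log2 fold change 0.40 ± 0.093 (SE), limma adjusted p = 0.017) that was not called with scaling by library totals, and was at 2964, 2953 and 3397 in GCN2 KO Cold (log2 fold change 0.29 ± 0.079 (SE), limma adjusted p = 0.0215 against WT RT, likewise lost with that scaling). Per kilobase, Akt2 stood 2.26 to 2.56 times as high as Akt1 in WT RT, 0.929 to 1.13 times in WT Cold and 0.897 to 1.24 times in GCN2 KO Cold.

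**Figure D4:**
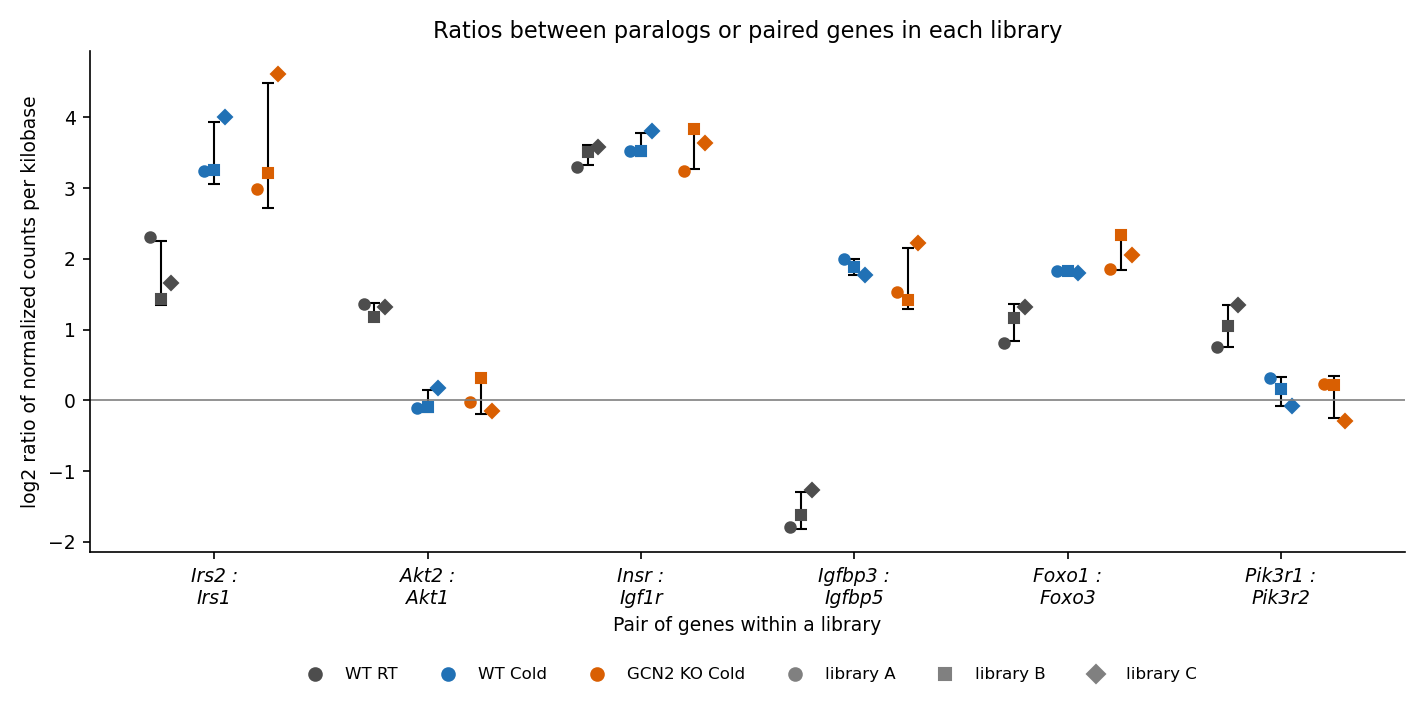
The log2 ratio of normalized counts per kilobase (y axis) for 6 pairs of genes (x axis) within each library, with points for libraries and bars for the SD around the group mean (n = 3). The ratio of Akt2 to Akt1 lies at 2.26 to 2.56 in WT RT and around 1 in both cold groups, and that of Igfbp3 to Igfbp5 lies on opposite sides of 1 at room temperature and in the cold.

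Of the 10 genes in the Akt arm, 3 rose and Akt2 alone fell in WT Cold against WT RT, beside 13.6% of all genes called higher and 14.1% called lower. The genes that rose besides Akt1 were Pdpk1, which encodes the kinase that activates Akt (log2 fold change 0.67 ± 0.090 (SE), limma adjusted p = 0.00201), and Gsk3a, a target of Akt (log2 fold change 0.60 ± 0.089 (SE), limma adjusted p = 0.0029). Trib1 (log2 fold change 0.80 ± 0.16 (SE), limma adjusted p = 0.00941) and Trib2 (log2 fold change 0.57 ± 0.18 (SE), limma adjusted p = 0.0488), of the Tribbles family that can inhibit Akt, rose too, Trib2 not with scaling by library totals. Among 6 phosphatase genes, Inpp5k fell (log2 fold change -0.53 ± 0.13 (SE), limma adjusted p = 0.0212). Of 8 genes in the mTORC1 arm, 3 rose and 1 fell, beside the same shares, with Ddit4, an mTORC1 inhibitor, at log2 fold change 1.69 ± 0.44 (SE), limma adjusted p = 0.0255, Rheb, an mTORC1 activator, at log2 fold change 0.44 ± 0.067 (SE), limma adjusted p = 0.00313, and Eif4ebp1, a repressor of translation, at log2 fold change -0.80 ± 0.16 (SE), limma adjusted p = 0.00835.

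Foxo1 encodes the FoxO factor that Akt holds in the cytoplasm. Its count was 1197, 1161 and 1505 in WT RT, 2683, 2722 and 3691 in WT Cold and, for GCN2 KO Cold, 2848, 3041 and 2532. Every cold library held more Foxo1 than every WT RT library, and the cold groups overlapped. Foxo1 rose 2.35-fold in WT Cold (log2 fold change 1.23 ± 0.15 (SE), limma adjusted p = 0.00142) and 2.20-fold in GCN2 KO Cold (log2 fold change 1.13 ± 0.12 (SE), limma adjusted p = 0.00044) against WT RT, in all 15 alternatives each. The difference between the cold groups was -0.10 on the log2 scale (95% confidence interval -0.42 to 0.22, limma adjusted p = 0.78), and 0.12 without both C libraries. Of the other FoxO genes, Foxo3 was at 597, 452 and 525 in WT RT and 662, 672 and 926 in WT Cold, called just inside the threshold (log2 fold change 0.52 ± 0.16 (SE), limma adjusted p = 0.0494) and not by edgeR or with other scalings. Foxo4 fell in WT Cold (log2 fold change -0.44 ± 0.11 (SE), limma adjusted p = 0.0216) and in GCN2 KO Cold (log2 fold change -0.53 ± 0.098 (SE), limma adjusted p = 0.00423) against WT RT. Per kilobase, Foxo1 stood 1.75 to 2.51 times as high as Foxo3 in WT RT, 3.48 to 3.54 times in WT Cold and 3.63 to 5.06 times in GCN2 KO Cold.

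Genes known as FoxO targets in other tissues did not all move the way Foxo1 did. Of 19 listed, 5 rose and 2 fell in WT Cold against WT RT (36.8%, against 27.7% of all genes), with a median log2 fold change of 0.095. Besides Insr and Irs2, which are on this list too, the genes that rose were Bcl6, a transcriptional repressor (log2 fold change 1.29 ± 0.15 (SE), limma adjusted p = 0.00105), Klf15, a regulator of fasting metabolism (log2 fold change 1.24 ± 0.24 (SE), limma adjusted p = 0.00849), and Fbxo32, which encodes the ubiquitin ligase atrogin-1 (log2 fold change 1.01 ± 0.095 (SE), limma adjusted p = 0.000537). The 2 that fell were Cited2 (log2 fold change -0.46 ± 0.10 (SE), limma adjusted p = 0.013) and Sesn3 (log2 fold change -0.58 ± 0.15 (SE), limma adjusted p = 0.0241). In GCN2 KO Cold against WT RT, 3 rose and 6 fell (15.8% and 31.6%, against 16.4% and 17.8% of all genes). Among them were Klf15 (1.33), Bcl6 (1.10) and Txnip (-0.83), each at a limma adjusted p of 0.0102 or lower. Fbxo32 was the only gene of either list called between the cold groups. It was at 985, 873 and 827 in WT RT, 1919, 1701 and 1753 in WT Cold and 966, 801 and 678 in the GCN2 KO Cold libraries, and fell in GCN2 KO Cold against WT Cold (log2 fold change -1.15 ± 0.13 (SE), limma adjusted p = 0.0295). The call was kept without GCN2 KO Cold A and lost without any of the other 5 libraries, at log2 fold changes of -1.03 to -1.18 (limma adjusted p 0.0509 to 0.181), and without both C libraries it was -1.04 (limma adjusted p = 0.0249). Fbxo32 is known in skeletal muscle, whose 10 markers were lower in GCN2 KO Cold, and the part of muscle in its values was not tested. Fbxo32 had the same order of libraries as the muscle sum in WT RT and among the GCN2 KO Cold libraries, and in WT Cold library C had a lower sum than B and a higher Fbxo32 count.

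Over the whole pathway list of 77 genes tested, 18 rose and 17 fell in WT Cold against WT RT, or 45.5% beside 27.7% of all genes. Leaving aside the 10 genes above, the counts were 13 and 15 of 67, with a median log2 fold change of 0.045. The count of 35 called genes was 22 without WT Cold B and 23 without WT RT B. The metabolic end of the pathway held the largest fall of the list, in Acly, which encodes ATP citrate lyase of fatty acid synthesis. Acly went from 85105, 105229 and 127965 in WT RT to 8255, 5946 and 10158 in WT Cold (log2 fold change -3.72 ± 0.21 (SE), limma adjusted p = 8.33e-05) and 11028, 10983 and 13092 in GCN2 KO Cold. Srebf1, a driver of lipid synthesis genes induced by insulin, fell as well (log2 fold change -1.23 ± 0.15 (SE), limma adjusted p = 0.00129), as did Tbc1d4, which restrains glucose transporter traffic until Akt phosphorylates it (log2 fold change -0.56 ± 0.15 (SE), limma adjusted p = 0.0254), whereas Pde3b, through which insulin curbs lipolysis, rose (log2 fold change 0.51 ± 0.13 (SE), limma adjusted p = 0.0221). Slc2a4, which encodes the insulin-responsive glucose transporter GLUT4, was at 7731, 7174 and 8512 in WT RT, 8992, 8793 and 8149.7 in WT Cold, with GCN2 KO Cold at 10847, 9809 and 11555. It was not called in WT Cold against WT RT (log2 fold change 0.15 ± 0.085 (SE), limma adjusted p = 0.216) and rose in GCN2 KO Cold against WT RT (log2 fold change 0.47 ± 0.094 (SE), limma adjusted p = 0.00642), and the difference between the cold groups was 0.31 on the log2 scale (95% confidence interval 0.11 to 0.51, limma adjusted p = 0.176).

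**Figure D5:**
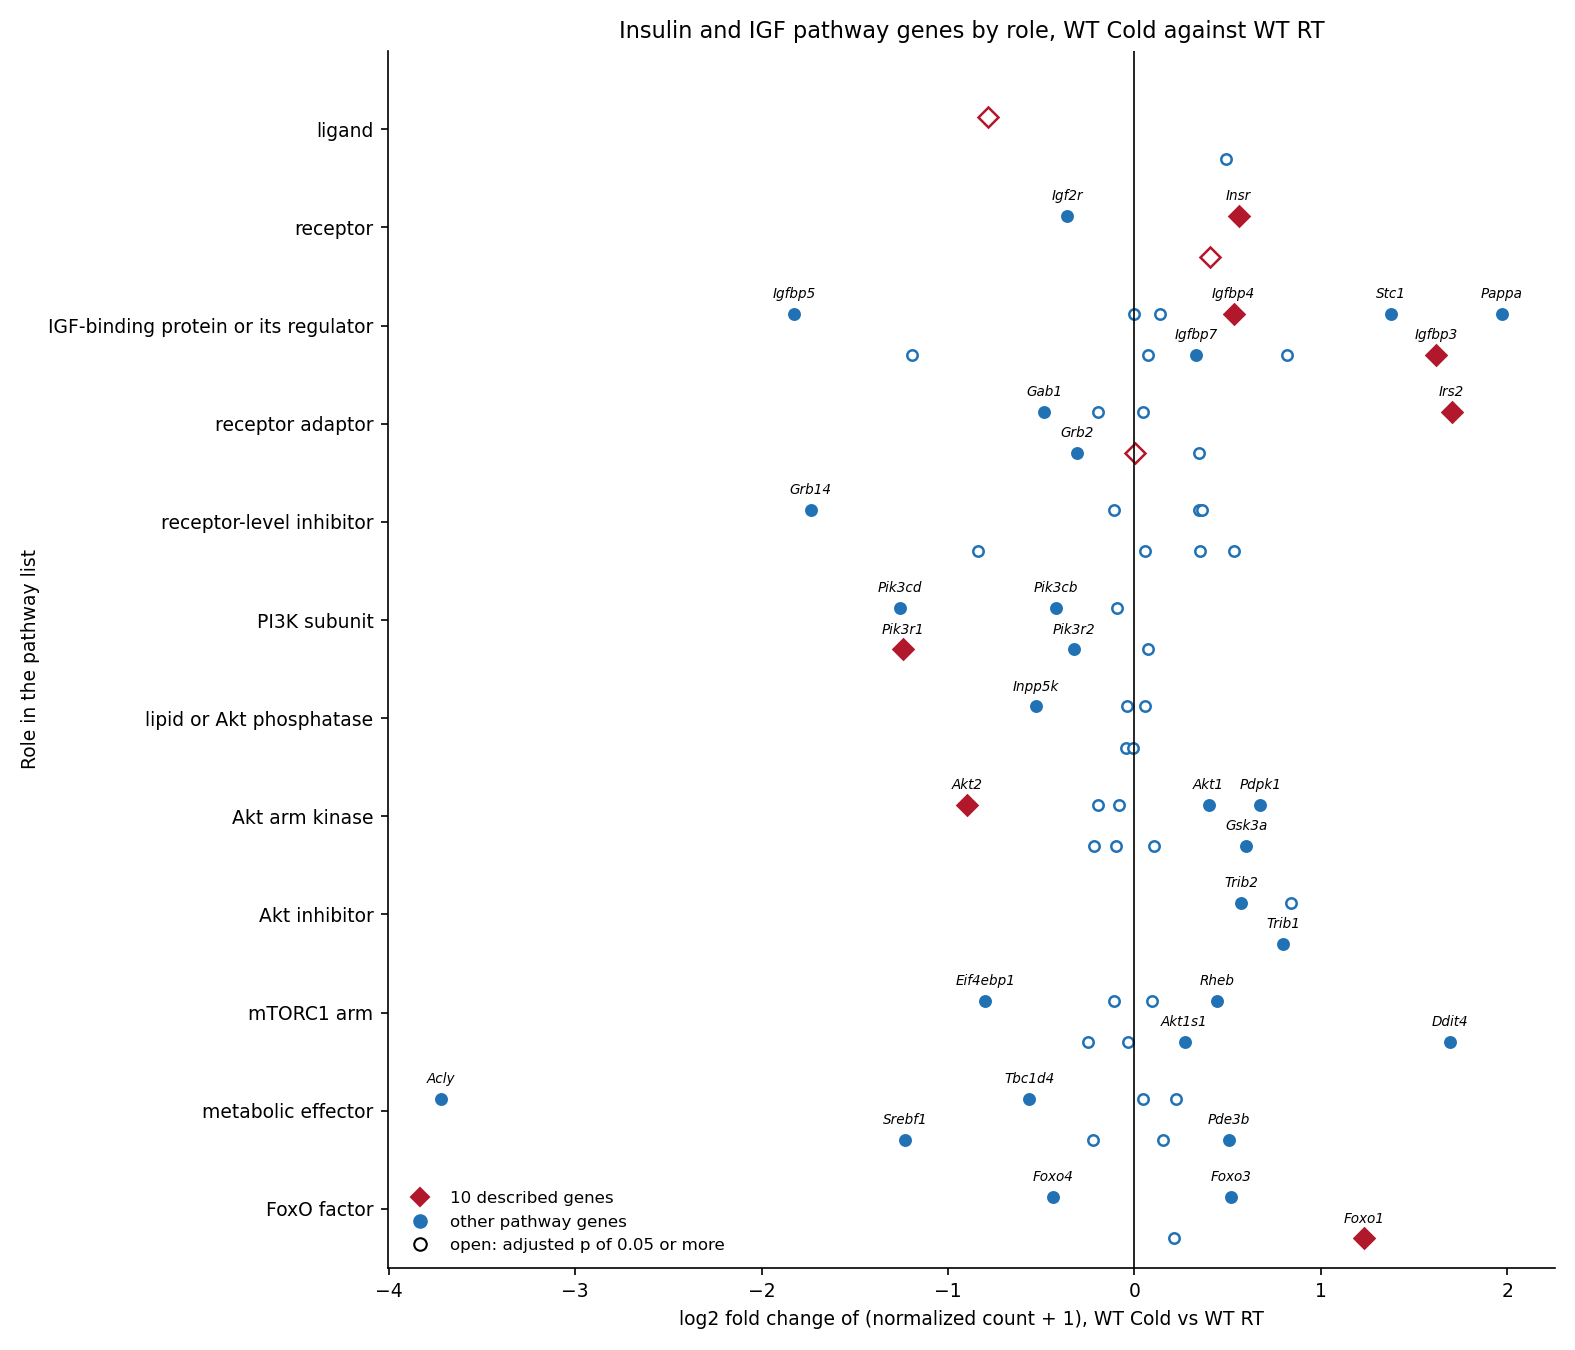
The log2 fold change in WT Cold against WT RT (x axis) of the pathway genes reported here by role (y axis), with diamonds for the 10 genes described, circles for the others, filled and named where the adjusted p was under 0.05. PI3K subunit genes lie at or left of 0 except Pik3ca (0.073), and the binding proteins and their regulators span -1.83 to 1.97.

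In GCN2 KO Cold against WT RT, 14 pathway genes rose and 21 fell of 77, beside 34.2% of all genes called. Acly fell most (log2 fold change -3.16 ± 0.15 (SE), limma adjusted p = 2.26e-05), followed by Igfbp5 (-2.04). Grb14, whose product binds and inhibits the insulin receptor, fell (log2 fold change -1.31 ± 0.13 (SE), limma adjusted p = 0.000384), as did Srebf1 (log2 fold change -1.53 ± 0.15 (SE), limma adjusted p = 0.000332). Inpp4b, which encodes a lipid phosphatase, fell by 0.92 (limma adjusted p = 0.0109). Pappa rose most (log2 fold change 1.62). Other genes that rose included Ddit4, an inhibitor of mTORC1 (log2 fold change 1.26 ± 0.23 (SE), limma adjusted p = 0.00441), Gsk3a, a kinase inactivated by Akt (log2 fold change 0.66 ± 0.084 (SE), limma adjusted p = 0.000982), and Pdpk1, a kinase that activates Akt (log2 fold change 0.45 ± 0.12 (SE), limma adjusted p = 0.025), the last not called with scaling by library totals. Between the cold groups none of 78 was called by limma, DESeq2 or edgeR, at a background of 0.405% for limma. At an unadjusted limma p under 0.05 there were 15 of 78, beside 15.3% of all genes, of which 12 were lower in GCN2 KO Cold, beside 7.49% of all genes, and 56 of the 78 had a lower mean there. Their median log2 fold change was -0.10. The largest differences were in Inpp4b (-0.91, limma adjusted p = 0.162) and Foxo6 (-0.89, limma adjusted p = 0.469), both of low count. For the 10 genes themselves, the intervals given above reached both sides of 0 in Igf1, Pik3r1, Akt2, Foxo1 and Igfbp4 and were widest in Igf1.

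WT Cold C stood apart in several genes of the pathway. Igfbp1, chosen with Trib3 after the values were seen, was at 108, 77.6 and 667 in WT Cold A, B and C and between 80.0 and 157 in all libraries of the other groups. Trib3 was at 229.5, 272 and 873 in WT Cold and between 195 and 406 elsewhere, and Ddit4 at 2869, 2930.4 and 8524 in WT Cold. Among the 10 genes, this library had the highest count of all 9 in Insr, Irs2, Foxo1, Igfbp3 and Igfbp4. Without it, Insr, Irs2, Foxo1 and Igfbp3 kept their calls in WT Cold against WT RT and Igfbp4 did not.

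The genes whose pattern over the 9 libraries was most like each of the 10 were read from Pearson's r of log2(CPM + 1) over 10524 genes with a mean of at least 5 CPM (reads scaled to a common library total). The 9 libraries share 3 groups, and r is given as a description. Akt2 was matched most closely, by Cyb561d1 (r = 0.997), Tspan14 and 4930402H24Rik. Foxo1 went with Arl4a (r = 0.992), Fkbp5 and Fam107a, Igfbp3 with Lrrfip2 (r = 0.986), Chka and Rusc2, and Pik3r1 with Rpa1 (r = 0.987), Ehd2 and Plin1. Slc43a3 and Dirc2 were among the 3 genes most like Insr. For Igf1 the leading genes were Iigp1 (r = 0.988), Cfb and Apol9b, and for Irs1 they were Dmd (r = 0.974), Ltbp1 and Neb. Irs2 was nearest to Ifrd2 (r = 0.952), Pde3a and Fbln1, and Igfbp4 to Gm28439 (r = 0.947), Cyp1b1 and Wdr60. Within the 10, the highest r was between Igfbp3 and Foxo1 (0.927) and the lowest between Foxo1 and Akt2 (-0.889), while Akt2 and Pik3r1 were at 0.923.

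Markers of other cell types were measured beside the 10 genes. Of 10 endothelial markers, 3 rose in WT Cold against WT RT, of 10 fibroblast or progenitor markers 6 fell, and of 7 mural markers 1 fell, beside 27.7% of all genes called in either direction. Their summed counts were 20430 to 24188 in WT RT, 26395 to 29714 in WT Cold and 22714 to 27143 in GCN2 KO Cold for endothelial cells, and 34535 to 40054, 27344 to 30044 and 19593 to 25594 for fibroblasts. Mural markers summed to 17071 to 27094 in WT RT and 20872 to 34327 in the cold. Lymphocyte markers were low, at 83.6 to 132 summed counts in any library. Igfbp3 and Insr are expressed in endothelial cells and Igfbp4, Igfbp5 and Igf1 in stromal cells as well as adipocytes, and the part of these cells in the values above was not tested.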

How the data were processed

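BAT RNA from 9 mice was sequenced, 3 per group. The submitters' processing notes name Trimmomatic 0.36, STAR 2.5.2b, featureCounts of Subread 1.5.2, DESeq2 and genome build GRCm39. The authors deposited a table for each of 3 comparisons, whose values are a signal per gene and library, namely reads over a size factor, with the factors estimated separately in each table. Fold changes and p-values of the authors are in the tables too and were not used. There were 0 columns of other samples. Whole reads were recovered for 100% of values within 0.01 read.

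Within each table, limma (version 3.58.1, R 4.3.3) with a mean-variance trend was run on log2(value + 1), the pseudocount of 1 slightly understating changes of low genes. Benjamini-Hochberg adjustment was made over all genes of the table, and calls were made at an adjusted p under 0.05. The study's further limit, an absolute log2 fold change over 1, is counted beside it. DESeq2 (version 1.42.0) and edgeR (version 4.0.16) were run on recovered reads as alternatives. Levels across the 9 libraries are reads scaled by size factors computed here over the 16006 genes in all 3 tables. Levels per kilobase use merged exons of GENCODE M21 (GRCm38), matched by gene identifier, and promoter windows are from RefSeq on GRCm38.p6, so neither is on the build of the deposited files. The limma fit of each comparison was tested on simulated counts scaled by library totals. DESeq2, edgeR and the fit of all groups together were not tested in this way. Nothing in the sources used here ties a library to a mouse, and p-values measure the spread between libraries. No comparison by sex was made.

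The 10 genes, the pathway, FoxO target and marker lists were chosen with earlier results of these data known. All 10 genes are described, and a few other results are not reported here. List genes are named where they passed both thresholds at a mean normalized count of at least 50, where they were among the 3 largest calls of their role, or, for Igf2, Igf2r, Akt1, Pik3r2, Foxo3 and Slc2a4, whatever their values. Alternatives were pseudocounts of 0.5 and 5, a minimum mean count of 50, 2 other scalings, both tools, no trend, all groups in a single fit, the fold limit and each library left out in turn. Leaving out both C libraries was added after seeing the data.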

Additional observations from a re-analysis of the deposited data

How the results depend on the processing

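No paired analysis was possible because the columns carry no replicate numbers. With the fold limit, calls went from 7 to 4 of the 10 genes, from 35 to 13 pathway genes and from 7 to 4 FoxO targets in WT Cold against WT RT. In GCN2 KO Cold against WT RT they went from 6 to 3, from 35 to 11 and from 9 to 2. Without the mean-variance trend, 21 pathway genes were called in WT Cold against WT RT and 0 FoxO targets between the cold groups, where the count was 1. Leaving out each library in turn gave 5 to 8 of the 10 genes, 22 to 36 pathway genes and 5 to 10 FoxO targets in WT Cold against WT RT, 0 to 1 FoxO targets between the cold groups, and 4 to 7, 28 to 33 and 8 to 9 in GCN2 KO Cold against WT RT. Between the cold groups 0 of the 10 genes and 0 pathway genes were called in every alternative run. Over all genes, 66 were called between the cold groups by limma, 526 by DESeq2 and 44 by edgeR. Over the single genes, 410 of 460 values kept their direction and side of the threshold, 20 lost a call, 11 gained a call and 19 turned in sign, each of these 19 without a call. Irs1 in WT Cold against WT RT was -0.082 with library totals, -0.0021 with TMM, -0.021 with DESeq2, -0.025 with edgeR, -0.0024 with all groups fitted together, -0.072 without WT Cold A, -0.082 without WT RT B and -0.11 without WT RT C, the range over libraries left out being -0.11 to 0.19. Between the cold groups, leaving out both C libraries gave 0.011 for Pik3r1, 0.12 for Foxo1 and 0.091 for Igfbp4. Leaving out 1 library there gave -0.29 to 0.14 for Pik3r1 (highest without GCN2 KO Cold C), -0.15 to 0.0095 for Akt2 (highest without GCN2 KO Cold A), -0.18 to 0.049 for Foxo1 (highest without WT Cold C) and -0.012 to 0.56 for Igf1 (lowest without WT Cold A). In GCN2 KO Cold against WT RT, Insr was -0.022 and Igf1r -0.13 with library totals, and Igf1r was -0.051 without GCN2 KO Cold A and -0.048 without WT RT B, and at most 0.22 without any library. The cause of these turns was not tested. The fewest reads behind any of the 10 genes in a library were 106, and counting error was not set apart from the spread between libraries.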
